A study of Danio rerio with 18 samples.

Results

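In the livers of adult zebrafish, 1660 chromatin regions were accessible in 5 of 6 sorted cell groups and had no called peak in control hepatocytes (HEPs). They were chosen by the presence or absence of peaks in the 6 deposited peak lists. Peaks of all lists were merged into regions wherever they overlapped by at least 1 bp, which gave 92012 regions. A region was kept if it held a peak of HEPs, hepatic stellate cells (HSCs) and endothelial cells (ECs) from fish given thioacetamide (TAA), a peak of control HSCs and control ECs, and no peak of control HEPs. The 1660 regions were 1.8% of all merged regions, and that share was set by the selection itself.

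Accessibility was measured by ATAC-seq, in which a transposase cuts open DNA and inserts sequencing adapters. TAA, a compound that injures the liver, was injected into adult females of the AB background at 500 mg/kg, 6 times within 2 weeks. Controls received sterile water by the study's methods, although the study also speaks of saline. The 6 groups, with 3 libraries each from 60000 sorted cells per library, were dsRed-positive HEPs of Tg(fabp10a:dsRed) fish after TAA, EGFP-positive HSCs of Tg(hand2:EGFP) fish after TAA, mCherry-positive ECs of Tg(kdrl:ras-mCherry) fish after TAA, and the same 3 sorts after water. Each cell type came from its own line and was defined by 1 reporter, so line and cell type cannot be told apart. The age of the fish in months and the fish behind each library are not given in the sources used here. The study counts fewer control fish than there were control libraries, so libraries may share fish.

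HEPs are the metabolic cells of the liver and make most plasma proteins. HSCs lie between HEPs and ECs, store vitamin A at rest and turn into matrix-producing cells after injury, while ECs line the sinusoids. Chromatin that is open in many cell types often lies at promoters of broadly used genes, whereas enhancers tend to be open in fewer cell types.

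The authors joined the 3 libraries of a group into 1 peak list, so there is no value per library, no spread between replicates and no test in what follows. The lists held 44649 peaks in TAA HEPs, 61245 in TAA HSCs, 54209 in TAA ECs, 55293 in control HSCs, 51257 in control ECs and 41563 in control HEPs. The list that the regions lack was thus the shortest of the 6. The depth of the libraries is unknown, and a list from shallower libraries can lack weak peaks without any difference in chromatin. List length and the HEP treatment cannot be told apart in these files. Intervals given with shares are Wilson 95% intervals, which cover counting error over regions only, and regions are not replicates.

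The share of the regions among those held by all 4 HSC and EC lists was read first. Starts of several HEP genes, given at the end, ranked about as high in both HSC lists and in TAA ECs as in HEPs. These lists may thus not stand for other cell types alone, and the part of this in the counts was not tested. All 4 HSC and EC lists shared 24478 regions. Of these, 1660 had a peak in TAA HEPs and none in control HEPs, or 6.78% (6.47 to 7.10%). The mirror pattern, a peak in control HEPs and none in TAA HEPs, held for 778 regions, or 3.18% (2.97 to 3.41%). Both HEP lists had a peak in 21112 regions (86.2%) and neither had one in 928 (3.79%). Regions lacking only control HEPs were thus 2.13 times as many as regions lacking only TAA HEPs. In a sorted population, a region open in fewer cells and one less open in every cell cannot be told apart.

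The ratio of both counts changed with the number of peaks taken from each list. When only the best 41563 peaks of each list were used, so that every list was as long as that of control HEPs, 663 regions of 19589 lacked only control HEPs (3.38%) and 382 lacked only TAA HEPs (1.95%), a ratio of 1.74. All 663 were among the 1660, which the cut nearly fixed in advance, since it removed no control HEP peak. It did shorten the TAA HEP list, and 304 of the 382 (79.6%) were among the 778 regions that lacked only TAA HEPs in whole lists. With the best 20000 peaks of each list, 181 regions of 9243 lacked only control HEPs and 182 lacked only TAA HEPs, a ratio of 0.995. With the better 50% of each list, where the lists again differ in length, the counts were 847 and 420, a ratio of 2.02. Both cuts counted mostly other regions, since a region enters when its weaker HEP peak is cut away. Only 2 of the 181 and 22 of the 847 were among the 1660. Lists of the same length also bring regions with only a TAA HEP peak and regions with only a control HEP peak to similar numbers across all regions. The ratio of 0.995 therefore cannot show whether the imbalance of the 1660 regions depends on list length.

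Across all regions with a HEP peak, 8796 of 49909 (17.6%) had a TAA HEP peak and no control HEP peak. The 1660 regions were 18.9% of these (18.1 to 19.7%). Of the 5750 regions with a HEP peak only in control fish, 778 were open in all 4 HSC and EC lists, or 13.5% (12.7 to 14.4%). Of the 35363 regions in both HEP lists, 59.7% were open in all 4. Another 2256 regions had the same pattern as the 1660 but lacked the control EC peak as well.

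When each list in turn was taken as the missing one, 1195 regions lacked only TAA ECs, 69 only TAA HSCs, 10377 only control ECs and 171 only control HSCs. Control ECs were thus missing far more often than control HEPs. In lists of equal length the counts were 663 for control HEPs, 382 for TAA HEPs, 533 for TAA ECs, 187 for TAA HSCs, 9791 for control ECs and 330 for control HSCs. Control HEPs were the second most frequent single gap in both settings, and TAA HEPs the fourth. With the best 20000 peaks control HEPs, with 181 regions, came behind control ECs with 5128, TAA ECs with 376 and TAA HEPs with 182.

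In every list that held them, the regions were weaker by their median than the regions in all 6 lists. Each region was scored by its strongest peak in a list, and the score was turned into a percentile within that list, where 0 is the weakest and 100 the best peak. The score rises with the significance of a peak, so percentiles rank peaks within a list and do not measure accessibility across lists. In TAA HEPs the median percentile of the 1660 regions was 25.9, against 69.4 for the regions in all 6 lists. Their TAA HEP scores had a median of 187 and ran between 57 and 1082, where the highest score in the list was 3240. Only 154 of the 1660 regions (9.28%) reached the better 50% of the TAA HEP list and 0 reached its best 10%.

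The median percentile of the regions was higher in HSCs and ECs, whose lists are longer. It was 43.5 in TAA HSCs, 34.9 in TAA ECs, 34.9 in control HSCs and 35.5 in control ECs. The regions in all 6 lists had medians of 77.2, 72.6, 75.4 and 68.9 in these lists. Counted from the top of each list, which does not move with the number of weak peaks, the median rank was 33089 in TAA HEPs, 34598 in TAA HSCs, 35310 in TAA ECs, 35992 in control HSCs and 33053 in control ECs. By that measure the regions stood no higher in HSCs or TAA ECs than in TAA HEPs. All 5 lists placed 700 of the 1660 regions (42.2%) in their weaker 50%, and 22 regions lay in the better 50% of all 5. TAA HEPs were the list of the lowest percentile for 643 regions (38.7%), but the list of the lowest rank from the top for 161 (9.70%).

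**Figure D1:**
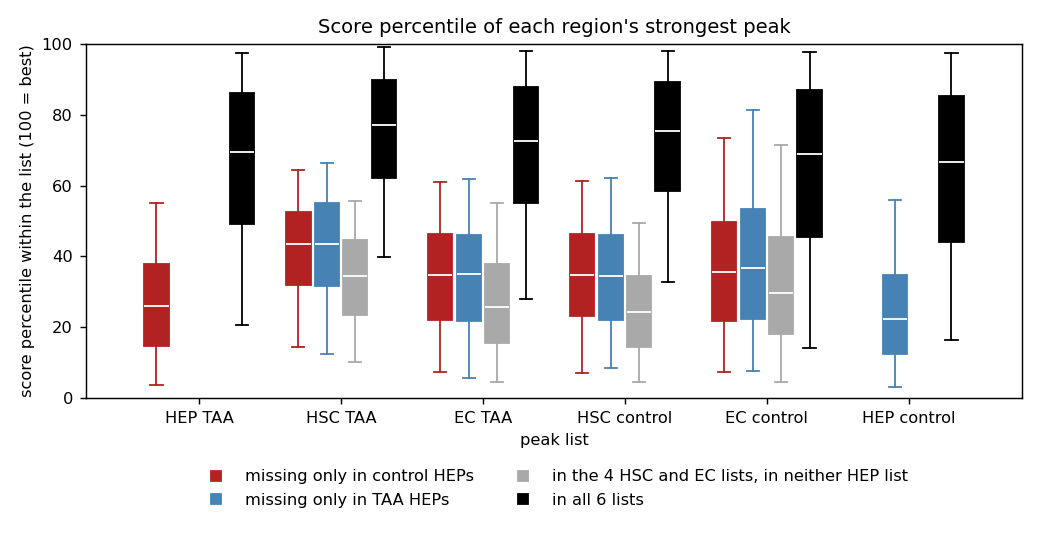
Score percentile (vertical axis, 0 to 100) of each region's strongest peak in the 6 peak lists (horizontal axis), for 1660 regions missing only in control HEPs, 778 missing only in TAA HEPs, 928 in the 4 HSC and EC lists and neither HEP list, and 21112 in all 6 lists. Boxes span the quartiles, the line is the median and whiskers reach the 5th and 95th percentiles of regions. The 2 sets that lack 1 HEP list overlap throughout in HSCs and ECs, with medians of 43.5 and 43.7 in TAA HSCs, and the medians of the regions in all 6 lists stand above theirs.

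Regions lacking only TAA HEPs looked much like them. In the mirror set the median percentile was 43.7 in TAA HSCs, 35.0 in TAA ECs, 34.4 in control HSCs and 36.9 in control ECs, and in control HEPs, the HEP list that held them, it was 22.2. Regions in neither HEP list were weaker, with medians of 34.5, 25.6, 24.3 and 29.6 in TAA HSCs, TAA ECs, control HSCs and control ECs. The order from weak to strong was therefore no HEP peak, 1 HEP peak and 2 HEP peaks, in each of the 4 lists, and which HEP list was missing moved these 4 medians by at most 1.36 percentile points.

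How often the control HEP peak was missing fell with the strength of the TAA HEP peak. Among regions held by all 4 HSC and EC lists, the share without a control HEP peak was 39.5% in the weakest decile of the TAA HEP list, then 36.8%, 27.4%, 18.3%, 9.31%, 4.30%, 1.06%, 0.263% and 0.119% in the next deciles. In the best decile there were 0 such regions among 3996, where 3 regions would have made 0.0751%. The mirror share, by decile of the control HEP list, was 22.9%, 17.3%, 11.2%, 6.82%, 3.42%, 1.83%, 0.729%, 0.107% and 0.0972%, and 0 of 3820 in the best decile. The share was larger for the missing control peak in each of the first 9 deciles, and the intervals of both shares were apart in the first 6. In lists of equal length the shares in the weakest decile were 27.5% and 14.5%, with intervals apart in the first 4 deciles, and the mirror share was the larger in deciles 7 and 9.

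**Figure D2:**
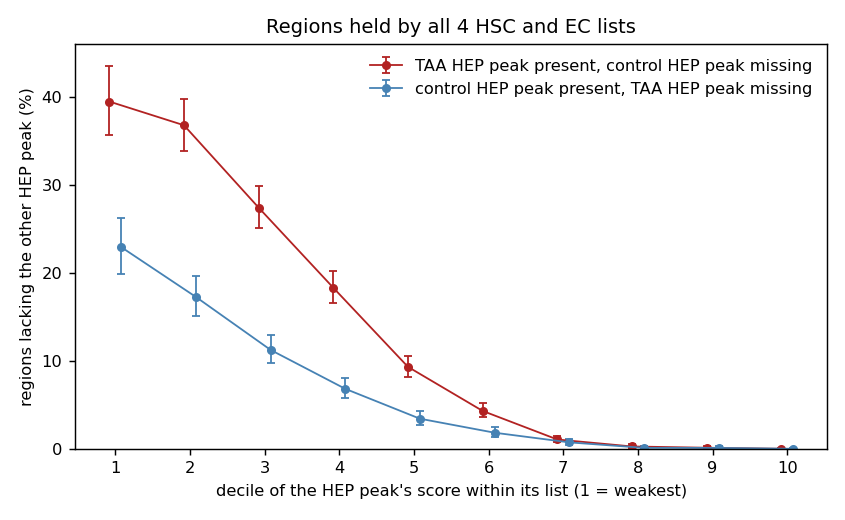
Share of regions without a peak in the other HEP list (vertical axis, percent) by decile of the score of the HEP peak they have (horizontal axis, 1 is the weakest), among regions held by all 4 HSC and EC lists. Bars are Wilson 95% intervals for counting error over regions. The share without a control HEP peak starts at 39.5% and the share without a TAA HEP peak at 22.9%, and both end at 0 in decile 10.

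In HSCs and ECs the regions were also weaker than other regions of the same TAA HEP rank. Regions missing only in control HEPs were set beside regions in all 6 lists from the same decile of the TAA HEP list. Their median percentile was lower in all 28 comparisons, 4 lists in each of the first 7 deciles, by between 7.57 and 23.4 points. The 28 are not separate results, since the same regions recur in the 4 lists. The sets differ by the rule in the control HEP peak, and how far that choice alone sets the difference was not tested. In the third decile, 365 regions had a median of 44.6 in TAA HSCs and 32.7 in control HSCs, against 53.0 and 46.5 for 967 regions in all 6 lists. In ECs of that decile the medians were 35.0 after TAA and 33.1 in control, against 43.2 and 44.2.

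Percentiles and ranks gave different pictures of the regions after TAA, since the TAA lists of HSCs and ECs are longer than the control lists. In HSCs, 1132 of the 1660 regions (68.2%, 65.9 to 70.4%) had a higher percentile after TAA than in control, with a median difference of 7.74 points. In ECs, 808 regions (48.7%, 46.3 to 51.1%) did, with a median difference of -0.638 points and quartiles of -16.8 and 15.0. By rank from the top, 889 regions (53.6%, 51.1 to 55.9%) stood nearer the top after TAA in HSCs, and 697 (42.0%, 39.6 to 44.4%) in ECs. The excess in HSCs was thus smaller by rank than by percentile. In the regions missing only in TAA HEPs the shares by rank were 54.4% in HSCs and 40.1% in ECs, against 48.2% and 49.2% in the regions of all 6 lists.

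The lists did not rank the 1660 regions alike. Spearman's rho between 2 lists, given over 1660 regions as a description, was highest for TAA HSCs with TAA ECs, at 0.555, and lowest for TAA HSCs with control ECs, at 0.0945. TAA HEPs had a rho of 0.391 with control HSCs, 0.312 with TAA HSCs, 0.250 with TAA ECs and 0.176 with control ECs. Over the 21112 regions in all 6 lists, rho between these 5 lists ran between 0.540 and 0.918. The 2 sets differ in the span of their percentiles. In TAA HEPs the quartiles were 14.7 and 37.9 in the 1660 regions, against 49.3 and 86.3 in the regions of all 6 lists. A narrower span lowers rho by itself, and its part in this difference was not tested. All lists share the genome sequence and the way peaks were called.

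In shape the regions were narrow and simple. Their median width was 186 bp, between 108 and 854 bp, against 240 bp for the regions in all 6 lists and 188 bp for those missing only in TAA HEPs. In 1638 of the 1660 regions (98.7%) each list had exactly 1 peak. The TAA HEP peak had a median width of 131 bp, and in 186 regions it was 100 bp wide, the narrowest width in the list. Peaks in the other lists were wider, with medians of 165 bp in TAA HSCs, 159 bp in TAA ECs, 153 bp in control HSCs and 146 bp in control ECs.

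The peaks of the different lists lay close together within a region. The rule sets this in part, since only overlapping peaks were merged and the regions are narrow. The TAA HEP summit, the position of the highest signal in the peak, lay within 50 bp of the summit in TAA HSCs in 94.9% of regions, in TAA ECs in 93.9%, in control HSCs in 93.6% and in control ECs in 87.6%. Median distances between summits were 8 bp, 9 bp, 9 bp and 12 bp in that order of lists. The merged regions were therefore seldom made by chaining of neighbouring peaks. In the regions of all 6 lists the matching shares were 94.9%, 94.3%, 94.7% and 89.4%, measured against the same TAA HEP list.

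Regions with a weak control HEP peak had a median TAA HEP score close to that of the 1660 regions. The lowest TAA HEP score inside the set was 57, and 68 of the 1660 regions scored under 100. Just outside, 145 regions of all 6 lists had a control HEP score under 100, the lowest being 66. TAA and control HEP scores come from separate lists, so these limits cannot be set against each other. These 145 regions had a median TAA HEP score of 192, against 187 in the 1660 regions, and median percentiles of 43.3 in TAA HSCs, 34.9 in TAA ECs, 38.3 in control HSCs and 38.6 in control ECs. A weak control HEP peak and a missing one thus came with TAA HEP peaks of nearly the same rank.

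The nearest control HEP peak was usually some kb from a region, about as far as other HEP peaks. Its median distance was 6631.5 bp, the shortest was 60 bp, and 16 regions lay under 100 bp from one. The nearest TAA HEP peak of another region had a median distance of 6223.5 bp. For regions in all 6 lists, the nearest control HEP peak of another region had a median distance of 5395 bp. Within 500 bp there was a control HEP peak for 197 regions, or 11.9% (10.4 to 13.5%), and within 10 kb for 1021 (61.5%). Of the regions missing only in TAA HEPs, 149 (19.2%, 16.5 to 22.1%) had a TAA HEP peak within 500 bp. In regions of neither HEP list, 11.3% had a control HEP peak within 500 bp, and in regions of all 6 lists 13.0% had another control HEP peak within that distance. Leaving out the 197 regions near a control HEP peak kept 1463, and the ratio to the mirror set, reduced in the same way to 629, was then 2.33.

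The regions were spread over the whole genome. Each of the 25 chromosomes held between 50 and 89, and they made up between 5.32% (chromosome 1) and 8.64% (chromosome 4) of the regions held by all 4 HSC and EC lists. Regions missing only in control HEPs outnumbered those missing only in TAA HEPs on 25 of 25 chromosomes, with ratios between 1.41 on chromosome 17 and 4.06 on chromosome 19. In lists of equal length they did so on 23 of 25, the exceptions being chromosome 17 with 17 against 19 and chromosome 23 with 18 against 20. With the best 20000 peaks of each list, which counts mostly other regions, they were more on 12 chromosomes, fewer on 11 and equal on 2.

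**Figure D3:**
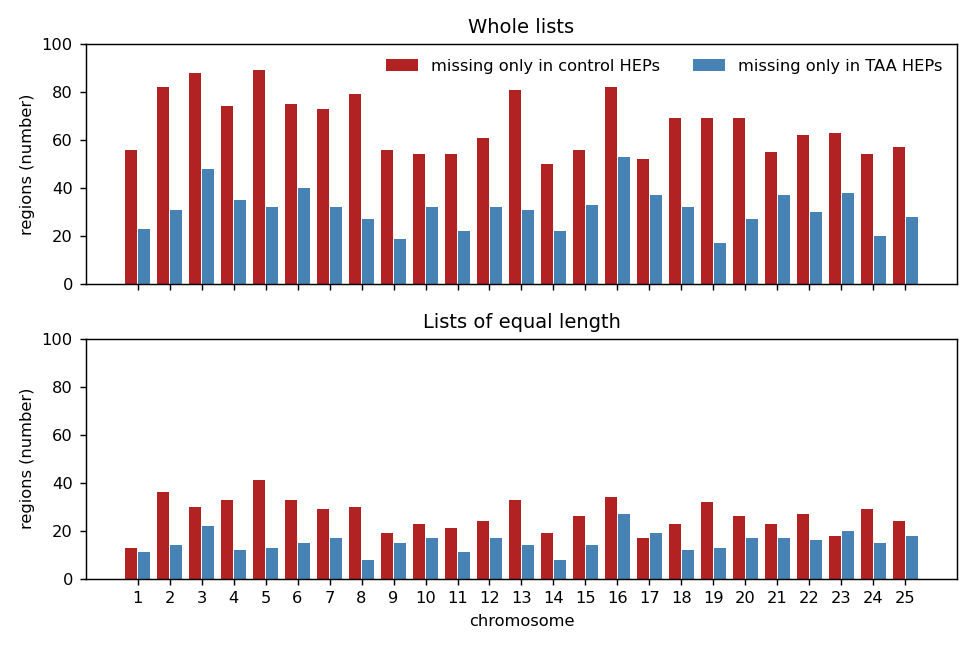
Number of regions (vertical axis) missing only in control HEPs and only in TAA HEPs on each of the 25 chromosomes (horizontal axis), in the whole lists (upper panel) and in lists cut to the length of the shortest one (lower panel). In whole lists the first number is higher on all 25 chromosomes, and in lists of equal length on 23.

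The median gap to the nearest other region of the set was 182750 bp, and 75 regions (4.52%) had another within 10 kb. Such gaps depend on the number of regions. They were not measured for an equal number of other regions, so nothing follows on whether the set is scattered or clustered. The fullest 1 Mb window was chr14:1-1000000, with 8 of its 37 regions of the 4 HSC and EC lists. The first and last 1 Mb of the chromosomes held 141 of the 1660 regions, or 8.49% (7.25 to 9.93%). They held 5.40% (4.02 to 7.22%) of those missing only in TAA HEPs and 5.96% (5.65 to 6.29%) of the regions in all 6 lists. Of the regions in the 4 HSC and EC lists and neither HEP list they held 6.47% (5.06 to 8.23%), an interval that overlaps that of the 1660. In these end windows, 9.39% of the regions of the 4 HSC and EC lists lacked only the control HEP peak, against 6.61% elsewhere. The mirror gap, without the TAA HEP peak, was not more frequent there, at 2.80% against 3.20% elsewhere. The share at the ends was above that of the whole chromosome on 17 of 25 chromosomes.

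Of the 1660 regions, 12 reached the best 10% of any list, and 1 of them stood there in all 4 HSC and EC lists. By list, 11 did so in control ECs, 2 in TAA HSCs, 1 in TAA ECs, 1 in control HSCs and 0 in TAA HEPs. Positions are on the zebrafish build GRCz11. At chr25:1343697-1343976 the score was 606 in TAA HEPs, 3240 in TAA HSCs, 2432 in TAA ECs, 3240 in control HSCs and 3240 in control ECs. The value of 3240 is the highest that occurs in the lists, and the percentiles were 72.0, 99.1, 96.4, 99.5 and 99.9. No control HEP peak lay nearer than 7986 bp. It was the 1 region of the 1660 that reached the highest score in any list.

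The other regions that ranked high in all 5 lists were of middling strength. The 10 with the highest percentile in their weakest list had 53.9 or more there. At chr17:52659042-52659261 the scores were 670 in TAA HEPs, 1107 in TAA HSCs, 666 in TAA ECs, 825 in control HSCs and 482 in control ECs, with a control HEP peak 670 bp away. At chr13:47678604-47678834 they were 486, 811, 690, 516 and 635 in the same order of lists. The region thus ranked between 62.4 and 75.0 in every list, and the nearest control HEP peak was 7457 bp away.

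Next came chr19:45959261-45959434, with percentiles between 62.3 and 70.1, and chr13:25755884-25756120, with percentiles between 57.3 in TAA ECs and 77.0 in control HSCs. At chr7:65656903-65657086 the nearest control HEP peak was 98767 bp away, and the TAA HEP score was 389. The remaining 4 were chr4:6062592-6062772, chr10:45323303-45323472, chr11:7156585-7156777 and chr6:213009-213208, with TAA HEP scores of 420, 438, 376 and 363. The region on chromosome 10 had a control HEP peak 435 bp away.

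**Figure D4:**
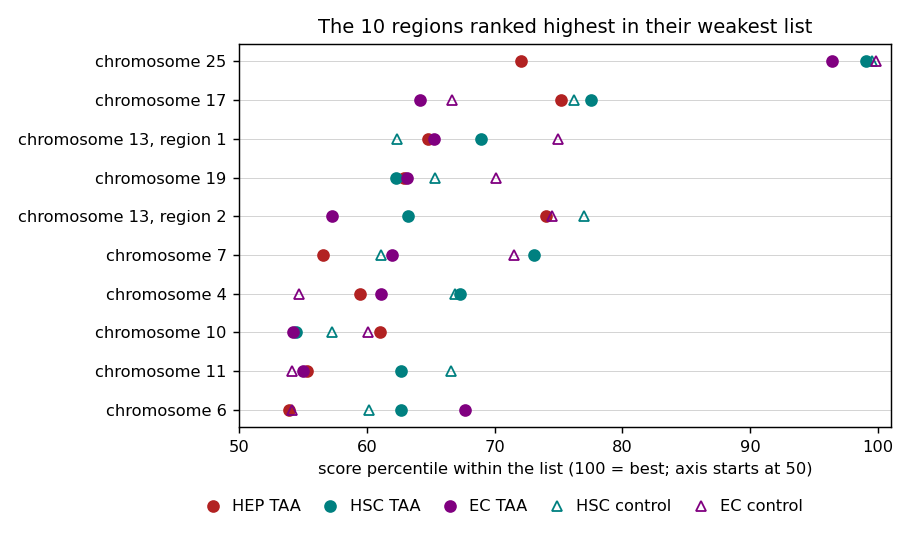
Score percentile within each list (horizontal axis, starting at 50) of the 10 regions missing only in control HEPs that have the highest percentile in their weakest list (rows). Filled circles are TAA lists and open triangles control lists. The region on chromosome 25 lies above 96 in the HSC and EC lists and at 72.0 in TAA HEPs, and the other 9 lie between 53.9 and 77.5.

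The strongest TAA HEP peaks of the set ranked unevenly in the other lists, high in some and low in others. At chr22:6562571-6562864 the score was 1082 in TAA HEPs, 1623 in TAA HSCs, 445 in TAA ECs, 1250 in control HSCs and 309 in control ECs. This peak ranked 88.1 in TAA HEPs and between 50.5 and 86.8 in the other lists, and the nearest control HEP peak was 21103 bp away. At chr24:41272815-41273059 the TAA HEP score was 990, and TAA HSCs ranked it lowest, at 44.2. At chr4:72287520-72287704 the TAA HEP score was 988, with percentiles of 52.4 in TAA ECs and 78.5 in control ECs.

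At chr22:18166489-18166670 the TAA HEP score was 796. The percentile was 18.6 in TAA HSCs, against 46.4 in control HSCs, and 16.1 in TAA ECs, against 59.6 in control ECs. A control HEP peak lay 1309 bp away. At chr14:10469620-10469867 the percentile was 78.6 in TAA HEPs, 80.5 in TAA HSCs and 84.2 in control HSCs, but 46.8 in TAA ECs and 11.4 in control ECs. At chr6:16219870-16220089 ECs also differed, with 73.7 after TAA and 42.0 in control.

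The rest of the 10 highest TAA HEP scores were 670 on chromosome 17 and 645 on chromosome 13, both at regions described above, 666 at chr20:40286485-40286825 and 646 at chr18:2668625-2668804. The nearest control HEP peak was 53984 bp away at the region on chromosome 20 and 44444 bp away at that on chromosome 18. Only 2 regions belonged to both groups of 10, so 18 were named in all.

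Gene starts could be looked up on chromosomes 1 and 10 and on part of chromosome 11, where the study's peak annotation gives GRCz11 gene models. In this stretch 16 named genes had 1 of the regions over their start, and they were looked up after the values were seen. Symbols are written as the gene table has them, and roles are those known in mammals. No other chromosome was looked at, so nothing follows on how often the regions lie at promoters.

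EWSR1 encodes an RNA-binding protein, and its start region at chr10:7988322-7988509 scored 235 in TAA HEPs, 890 in TAA HSCs, 908 in TAA ECs, 510 in control HSCs and 283 in control ECs. It ranked 36.4 in TAA HEPs, 71.6 in TAA HSCs and 73.5 in TAA ECs. DDX19A, an RNA helicase of mRNA export, had 291, 448, 282, 331 and 638 in the same order, highest in control ECs. PCID2, also of mRNA export, had 231, 330, 432, 150 and 162, and ranked higher after TAA than in control in both HSCs and ECs. The start of smu1b, a relative of a splicing factor, ranked 13.9 in TAA HEPs. MED19 encodes a subunit of Mediator, which links transcription factors to RNA polymerase, and its region ranked 45.8 in TAA HEPs with a control HEP peak 111 bp away.

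ATIC catalyses the last steps of purine synthesis, and its region had percentiles between 26.2 in TAA HSCs and 45.9 in control ECs. AK3, a mitochondrial nucleotide kinase, had scores of 386 in TAA HEPs, 222 in TAA HSCs, 117 in TAA ECs, 507 in control HSCs and 1184 in control ECs. The AK3 region thus ranked 4.87 in TAA ECs and 89.7 in control ECs, the widest span among the 16. The start of ubc, a gene of polyubiquitin, also ranked low in TAA ECs, at 4.75, against 30.9 in control ECs. PDE12, a phosphodiesterase that shortens RNA tails in mitochondria, ranked between 39.0 in TAA HEPs and 62.4 in control HSCs.

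SNX30, a sorting nexin of endosomes, ranked 20.9 in TAA HEPs and 60.5 in TAA HSCs, against 26.9 in control HSCs. TRAPPC5, a subunit of a vesicle tethering complex, ranked 51.2 in TAA HEPs and 8.95 in TAA ECs. The choline transporter gene slc44a1a had the lowest TAA HEP percentile of the 16, at 8.80, and a control HEP peak 185 bp from its region. The histone chaperone gene rbb4l ranked 51.1 in TAA HEPs and had a control HEP peak 296 bp away. SPRYD7 and wu:fc21g02 ranked 9.88 and 16.1 in TAA HEPs.

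POSTN encodes periostin, a matrix protein that stellate cells and fibroblasts secrete in injured tissue. The gene table gives this symbol to 2 gene IDs, and the start looked up was that of ENSDARG00000043806. Its region at chr10:25817824-25818022 scored 368 in TAA HEPs, 217 in TAA HSCs, 156 in TAA ECs, 207 in control HSCs and 274 in control ECs. The percentile was 54.5 in TAA HEPs and 26.6 in TAA HSCs, against 28.7 in control HSCs, so the region ranked lower in both HSC lists than in TAA HEPs. In ECs it ranked 12.5 after TAA, against 46.7 in control. The nearest control HEP peak was 2656 bp away.

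**Figure D5:**
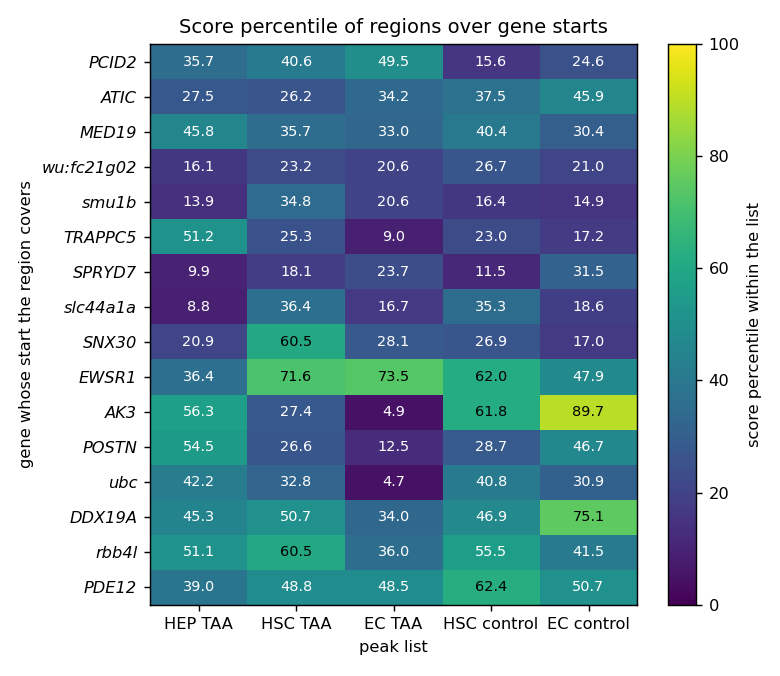
Score percentile within each list (colour, 0 to 100, printed in each cell) of the 16 regions missing only in control HEPs that cover the start of a named gene (rows, with chromosomes 1, 10 and part of 11 looked at), in the 5 lists that hold them (columns). The highest percentile reached in a region's weakest list is 39.0, at PDE12, and AK3 spans 4.9 in TAA ECs to 89.7 in control ECs.

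Lists of genes for liver cell types and injury pathways held 392 genes, of which 24 could be found by symbol in the stretch that was looked at. None of the 24 had 1 of the regions within 3 kb of its start, and with so few of 392 looked up this says little on the lists. Another 10 matched only without a closing a or b, as POSTN for a listed periostin gene, and POSTN was the 1 of these with a region within 3 kb.

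The starts of 5 genes of plasma proteins made by HEPs, fga, FGB, FGG, c3a.1 and ambp, served to check the sorts. They ranked between 75.8 and 92.4 in TAA HEPs, 82.6 and 95.4 in TAA HSCs, 79.2 and 94.0 in TAA ECs, 71.7 and 94.0 in control HSCs and 80.9 and 94.4 in control HEPs. In control ECs FGB and c3a.1 had no peak, and the other 3 ranked between 3.60 and 9.12. The only 2 endothelial genes looked up were matched without a closing a or b. No stellate gene was found by symbol, and no erythroid gene was looked up. CLDN5, a tight junction gene of ECs, ranked 35.5 in TAA ECs and 85.3 in control ECs, against 29.8 in TAA HEPs and 47.1 in control HEPs. ESAM, an adhesion gene of ECs, ranked 83.3 in TAA ECs and 65.4 in control ECs, against 81.5 in TAA HEPs and 80.2 in control HEPs. In controls CLDN5 thus ranked higher in ECs than in HEPs and ESAM lower. After TAA neither stood nearer the top of the EC list, since by rank from the top CLDN5 was 34960 in TAA ECs and 31353 in TAA HEPs, and ESAM 9066.5 in TAA ECs and 8268 in TAA HEPs. POSTN, listed as a stellate gene and matched in the same way, stood at 44956.5 in TAA HSCs and 39410 in control HSCs. In TAA HEPs it stood nearer the top, at 20316. This POSTN region belongs to the 1660, so the rule required its TAA HEP peak and the lack of a control HEP peak. It therefore cannot serve to check the sorts. Peaks at HEP genes thus ranked about as high in 3 of the 4 HSC and EC lists as in HEPs, and the part of this in the 1660 regions was not tested. The study judged purity from RNA instead. It reports reads of each reporter as strongly enriched in the positive sorts and takes the sorts to be pure. For cell identity it also cites fluorescence in liver sections, known marker genes enriched in the RNA of the sorted control cells, and matching gene ontology terms.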

How the data were processed

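The deposited files were 6 peak lists, 1 for each group of 3 libraries. Per the study's methods, the authors trimmed adapters with cutadapt 1.18, aligned paired reads to GRCz11 with Bowtie2 2.3.4.3, kept short fragments, shifted read ends for the transposase, computed a p-value track per library with MACS2 2.1.0.2, combined the 3 tracks of a group by Fisher's method and discarded peaks over low-complexity sequence with bedtools 2.27.1. Pooling removes the spread between libraries, and a q-value cutoff makes list length depend on depth. The deposited score rises with the negative log10 of the q-value, has a highest value of 3240, and was used here only to rank peaks within a list. Summit offsets were also used. The other value columns were 0.

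Regions were merged and counted in Python 3.11.15 with numpy 2.4.6 and pandas 2.3.3, and figures drawn with matplotlib 3.10.9. The merging and counting were tested on simulated data with planted patterns. No test was run, since no group had values per library. Named are the 10 regions with the highest percentile in their weakest list and the 10 with the highest TAA HEP percentile. Gene starts come from the study's peak annotation, held only in part, and were used for identity alone. The regions, gene lists and comparisons were chosen with earlier results of these data known. Sequence, promoter share and motifs were not analysed here. The alternatives were lists of equal length, the best 20000 peaks, the better 50% of each list, joining within 100 bp, no peak of the missing list within 500 bp, overlap of 50%, mean scores, the numbered chromosomes alone and, added after the values were seen, ranks counted from the top of each list and the better 50% of 5 lists against the whole missing list. Where a share was 0, the limit given is that of 3 regions.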

Additional observations from a re-analysis of the deposited data

How the results depend on the processing

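Of regions missing only in control HEPs and only in TAA HEPs, whole lists gave 1660 and 778, a ratio of 2.13. Lists of equal length gave 663 and 382, a ratio of 1.74, a share of regions of the 4 HSC and EC lists of 3.38% and a median TAA HEP percentile of 27.0. The best 20000 peaks gave 181 and 182, a ratio of 0.995, so the counts were nearly equal. The share was 1.96%, and 5.52% of the 181 regions had one of the best 20000 control HEP peaks within 500 bp. Control HEP peaks that the cut removed were not counted there. The better 50% of each list gave 847 and 420, with a ratio of 2.02 and a share of 6.76%. Both cuts counted mostly other regions, since only 2 of the 181 and 22 of the 847 were among the 1660. With no peak of the missing list within 500 bp, the ratio was 2.33 and the share 5.98%. A control HEP peak lay within 200 bp of 4.88% and within 1000 bp of 17.1% of the 1660. Chosen after seeing the data were the better 50% of 5 lists against the whole missing list, which gave 22, 12 and 1.83, and ranks from the top in place of percentiles, which gave 53.6% of regions standing higher after TAA in HSCs, against 68.2%, and 42.0% in ECs, against 48.7%. The other 19 of 40 alternative values moved by less than their limit. The ratio was above 1 in 7 of 8 settings. The 19 values and the 7 settings both include the numbered chromosomes alone, which could change no value, since every list held only the 25 numbered chromosomes. Where the lists were cut to the same number of peaks, the ratio was 1.74 with the best 41563 and 0.995 with the best 20000.

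No paired analysis was possible because each list pools its 3 libraries. Leaving out a replicate was not run for the same reason. Promoter share, GC content, motif shares and counts of gene lists were not run, for lack of a GRCz11 genome and annotation among the files used here. Depth is unknown.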
